A study of Mus musculus with 12 samples.

Results

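The antioxidant and NRF2 target genes described here are 41 mouse genes, listed by symbol, that make, recycle or spend the thiols and NADPH with which a cell disposes of peroxides, together with the NRF2 factor (Nfe2l2), its inhibitor Keap1 and the oxidant-producing enzyme Nox4. The list is one of names, with no threshold on a measured value, and it was drawn up with earlier results of these data known. Of the 41, the platform annotation named 37 among the 19505 genes it names on the array, and these 37 were tested. Ucp2, Prdx6 and G6pdx were named only by the authors' deposited tables of differences, so they are described at the end without a test. Prdx5 was named by neither source and has no value here.

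RNA came from primary embryonic fibroblasts of C57/BL6 mice, taken from E13.5 embryos, kept at low passage in DMEM with 10% serum and harvested before confluence. The 4 groups were WT (wild type), Sos2KO, Sos1KO and Sos1/2DKO, with 3 Affymetrix arrays in each. Sos1 and Sos2 encode exchange factors that load RAS proteins with GTP. All cultures, WT included, had received 4-hydroxytamoxifen for 12 days, so every difference below is between cultures exposed to that drug. The labels name neither the alleles nor a Cre driver, and they number biological replicates within each group without giving embryos or litters. The p-values therefore measure the spread between these cultures.

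As background, the transcription factor NRF2 is held in the cytosol and marked for degradation by KEAP1, a protein with reactive cysteines. Oxidants and electrophiles that modify those cysteines let NRF2 accumulate and, with a small MAF partner, bind antioxidant response elements in the promoters of genes for glutathione synthesis, thioredoxin recycling, detoxification and NADPH supply. Glutathione and thioredoxin pass electrons from NADPH to the enzymes that reduce peroxides. RAS signalling has been linked to this system in fibroblasts, in which oncogenic RAS alleles can raise Nfe2l2 expression and NOX enzymes can carry growth factor signals.

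The short promoter matches are shown because they mark which of these genes carry the core letters of an antioxidant response element close to their start. RefSeq windows of 300 bases, from 250 before to 50 after a gene's start (GRCm38.p6), were searched on both strands for the core TGACNNNGC. Windows were found for 35 of the 41 genes, and 11 of these 35 (31.4%) held a match, against 14.0% of the 27025 genes with a window. In the lines that follow, read 5′ to 3′ on the strand that holds the match, the capitals mark the core.
Txnrd1 (chr10:82859104-82859132, minus strand): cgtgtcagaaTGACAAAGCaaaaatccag
Pgd (chr4:149166061-149166089, minus strand): atttcagagcTGACATTGCactgatcgga
Mgst1 (chr6:138140461-138140489, minus strand): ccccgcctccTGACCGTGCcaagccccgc
Nfe2l2 (chr2:75704885-75704913, minus strand): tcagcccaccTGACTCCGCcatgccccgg
Gclm (chr3:122245413-122245441, minus strand): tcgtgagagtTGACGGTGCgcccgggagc
Srxn1 (chr2:152105542-152105570, minus strand): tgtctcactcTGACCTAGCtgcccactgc
Prdx1 (chr4:116685456-116685484, minus strand): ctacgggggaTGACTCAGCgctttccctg
Me1 (chr9:86695902-86695930, minus strand): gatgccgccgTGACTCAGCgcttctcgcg
Ucp2 (chr7:100493282-100493310, minus strand): gggcgtggcgTGACGAGGCggagccaggg
The matches in Sod1 and G6pdx complete the 11. The Prdx1 and Me1 cores overlap a match to TGANTCA, the site bound by AP-1 factors, which was found in 5 of the 35 genes (14.3%) and in 8.97% of all genes with a window. Hmox1, Gclc, Gsr, Prdx6, Sod3 and Gsta4 have no entry. A match is a run of letters and not evidence of binding.

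Levels are log2 RMA values, the authors' normalised array intensities, and a difference of 1 is a factor of 2. The arrays had closely matched medians, between 5.82 and 6.01. Sos1 averaged 9.08 ± 0.21 (SD, n = 3) in WT and 8.98 ± 0.35 in Sos2KO, against 7.27 ± 0.12 in Sos1KO and 7.52 ± 0.40 in Sos1/2DKO. Sos2 averaged 8.88 ± 0.31, 7.74 ± 0.19, 8.88 ± 0.15 and 7.86 ± 0.19 in the same order, so both targeted genes matched the labels. The mean level of 8 fibroblast markers lay between 10.1 and 11.6 on every array. One of the 8, Lum, varied from 4.30 in Sos2KO replicate 1 to 10.48 in Sos1/2DKO replicate 2. The others stood at 9.08 or higher on every array and bore out the labelled cell type. The Dap spike-in control split the arrays into 7 without it (3.59 to 3.82) and 5 with it (6.05 to 9.32), the latter being all 3 Sos2KO arrays, Sos1KO replicate 3 and Sos1/2DKO replicate 1. The mean of 14 measured macrophage markers ranged from 5.70 to 7.48 in WT, from 4.91 to 5.81 in Sos2KO, from 6.22 to 7.24 in Sos1KO and from 5.23 to 6.26 in Sos1/2DKO. High-GC background probes reached 8.89 in Sos2KO and 8.20 elsewhere. A guide to weak signal was the 75th percentile of probe sets placed in introns, 5.01 to 5.76 by array. All 37 tested members lay above it on all 12 arrays, and of the macrophage markers Mrc1 lay below it on every array. Lum lay below it in Sos2KO replicate 1.

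The question of which deletion moved these genes was put first to all 12 arrays, with the 6 Sos1-deleted arrays (Sos1KO and Sos1/2DKO) set against the 6 Sos1-intact arrays (WT and Sos2KO). By limma, with Benjamini-Hochberg adjustment over 19505 genes and a call at an adjusted p under 0.05, 9 of the 37 members changed, where 10.3% of all genes tested were called. All 37 lay above the guide to weak signal, while the 19505 genes take in dim ones. With the dimmest 30% of genes left out, 9 members were again called, where 15.7% of the 13653 genes tested were. Gsto1, Pgd, Taldo1, Gss and Txnrd1 fell, and Sod3, Nox4, Mgst1 and Cat rose, that is 5 lower and 4 higher, where 5.63% of all genes were called lower and 4.71% higher. The median difference over the 37 members was -0.06, against 0.01 over all genes, and the calls ran in both directions. Because whole cultures were measured, fewer cells of a type and less RNA per cell cannot be told apart.

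**Figure D1:**
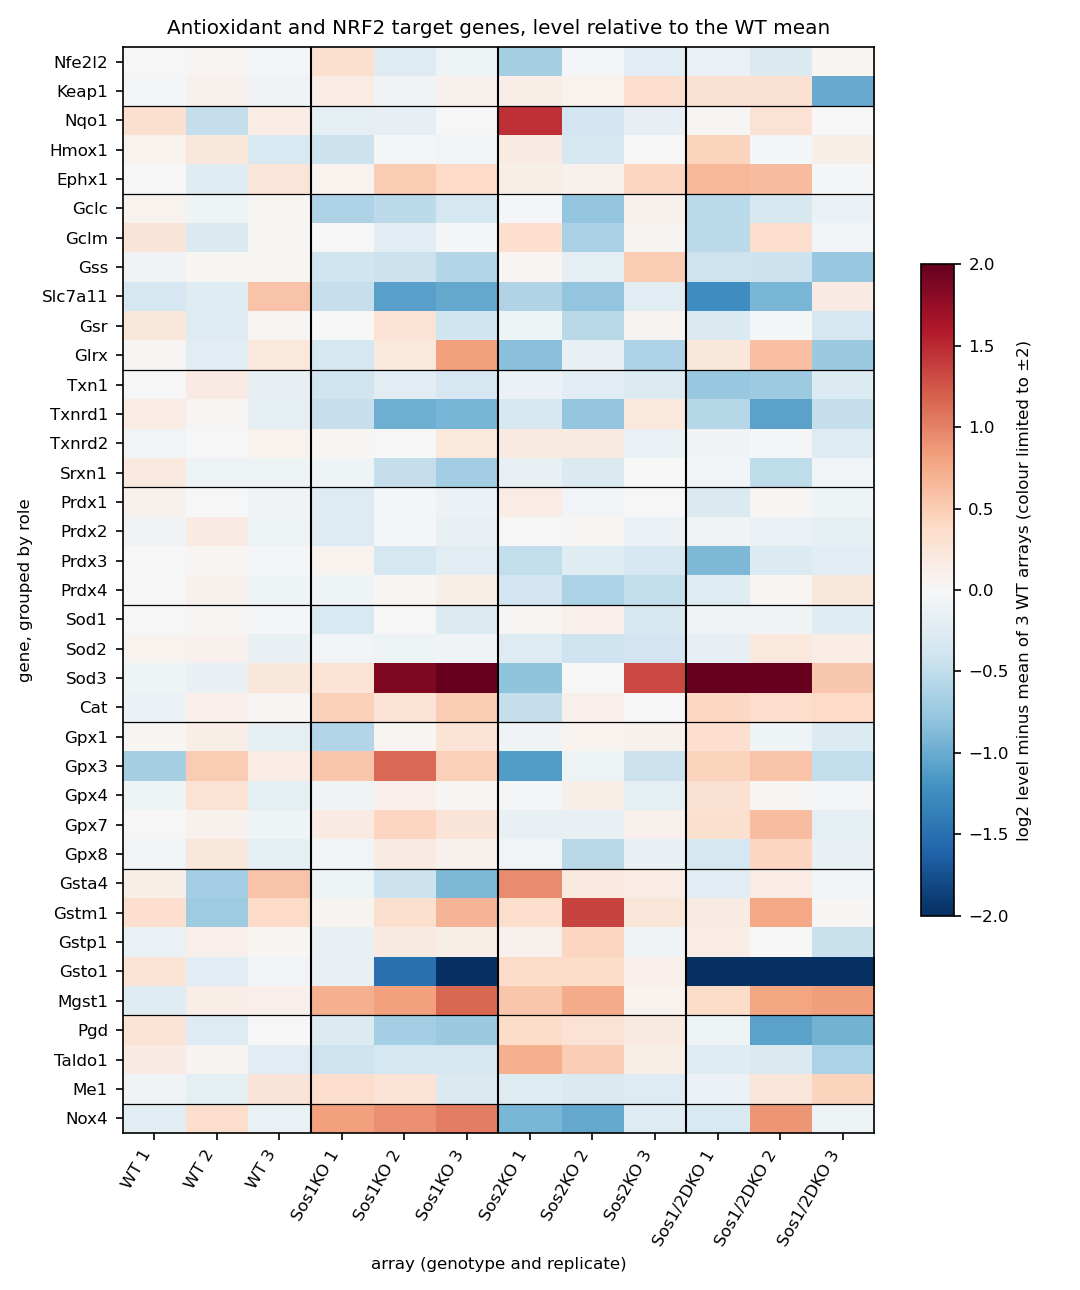
Log2 level of each of the 37 tested genes (rows, grouped by role) on each of the 12 arrays (columns), minus the mean of the 3 WT arrays. Colour is limited to 2 log2 units either way. Gsto1 is low on 5 of the 6 Sos1-deleted arrays and Sod3 is high on 4 of them, while Hmox1, Prdx1 and Prdx2 stay close to WT throughout.

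Gsto1, an omega-class glutathione transferase with thioltransferase activity, fell the most. Its level was 10.96, 10.46 and 10.62 in WT and 11.04, 11.04 and 10.78 in Sos2KO. It was 10.54, 9.19 and 8.40 in Sos1KO and 8.63, 8.57 and 8.61 in Sos1/2DKO. The 3 double knockout arrays were nearly identical and lay well below every WT and Sos2KO array, while Sos1KO ran from a WT-like value in replicate 1 down to the double knockout level in replicate 3. Across the 6 against 6 arrays Gsto1 fell by 1.83 (SE 0.27), a factor of 3.55, with a limma adjusted p of 0.0020. Without Sos1KO replicate 1 the difference was the largest of the left-out fits, at -2.12. The difference was -1.95 with the spike-in as a term in the fit. The 250 bases upstream of its start are shown because it is the largest fall among the tested members and neither the antioxidant core nor TGANTCA occurs in them (GRCm38.p6, plus strand, all in lower case since there is nothing to mark).
Gsto1 (chr19:47854723-47854972): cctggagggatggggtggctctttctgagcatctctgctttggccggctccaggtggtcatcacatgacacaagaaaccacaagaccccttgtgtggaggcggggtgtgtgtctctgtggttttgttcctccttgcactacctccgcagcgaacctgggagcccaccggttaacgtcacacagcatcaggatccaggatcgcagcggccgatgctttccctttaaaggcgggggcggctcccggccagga

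Pgd and Taldo1 of the pentose phosphate pathway fell, and the NADPH-producing Me1 was not called. Pgd, the phosphogluconate dehydrogenase that makes NADPH in the oxidative branch of the pentose phosphate pathway, stood at 10.05, 9.53 and 9.77 in WT and at 10.14, 10.08 and 9.96 in Sos2KO. It stood at 9.50, 9.11 and 9.05 in Sos1KO and at 9.70, 8.72 and 8.84 in Sos1/2DKO. Only replicate 1 of the double knockout reached into the range of the Sos1-intact arrays. Pgd fell by 0.77 (SE 0.17), a factor of 1.70, with a limma adjusted p of 0.013. Taldo1, the transaldolase of the non-oxidative branch, stood at 8.23, 8.11 and 7.85 in WT and 8.78, 8.55 and 8.18 in Sos2KO, against 7.65, 7.71 and 7.72 in Sos1KO and 7.82, 7.77 and 7.43 in Sos1/2DKO. Every Sos1-deleted array was below every Sos1-intact array, and the fall was 0.60 (SE 0.13, limma adjusted p = 0.010). Me1, the cytosolic malic enzyme, was not called, at 0.28 with a 95% interval from -0.03 to 0.59.

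The genes of glutathione synthesis and cystine uptake, grouped with Gsr and Glrx, showed 1 call among 6, where 10.3% of all genes were called. Gss, glutathione synthetase, which adds glycine in the last step, stood at 8.34, 8.44 and 8.46 in WT and at 8.45, 8.22 and 8.93 in Sos2KO. It stood at 8.02, 7.98 and 7.82 in Sos1KO and at 8.0, 7.98 and 7.65 in Sos1/2DKO. As with Taldo1, the 6 Sos1-deleted arrays lay wholly below the other 6. Gss fell by 0.56 (SE 0.13), with a limma adjusted p of 0.015. Non-overlapping 6 against 6, lower in the deleted arrays, was seen for 2.69% of all genes and for Gss and Taldo1 here. It was seen higher for 1.75% of all genes and for Cat here.

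Gclc and Gclm, the catalytic and modifier subunits of the enzyme that starts glutathione synthesis, were not called. Gclc stood at 8.34, 8.20 and 8.29 in WT and 8.23, 7.49 and 8.35 in Sos2KO, against 7.65, 7.76 and 7.93 in Sos1KO and 7.74, 7.95 and 8.15 in Sos1/2DKO. Both Sos1-deleted groups lay below all WT arrays, but Sos2KO replicate 2 lay lower still, and the effect of Sos1 loss was -0.29 (95% interval -0.61 to 0.03, limma adjusted p = 0.27). Gclm stood at 8.21, 7.66 and 7.97 in WT and 8.28, 7.30 and 8.01 in Sos2KO, against 7.94, 7.71 and 7.93 in Sos1KO and 7.41, 8.29 and 7.88 in Sos1/2DKO. The groups overlapped throughout, with a difference of -0.04 (95% interval -0.45 to 0.36) that ran from -0.18 to 0.07 when 1 array was left out. Slc7a11, the cystine importer that feeds this pathway, stood at 7.46, 7.55 and 8.36 in WT and 7.18, 7.0 and 7.56 in Sos2KO, against 7.32, 6.70 and 6.76 in Sos1KO and 6.54, 6.88 and 7.96 in Sos1/2DKO. Its Sos1KO arrays were all under WT, but double knockout replicate 3 was not, and the effect was -0.49 (95% interval -1.02 to 0.03, limma adjusted p = 0.26). Gsr, which regenerates reduced glutathione, and Glrx, a glutaredoxin, were at -0.03 and 0.39 and were not called.

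In the thioredoxin system, Txnrd1 was called and 3 other genes were not. Txnrd1, the cytosolic reductase that recharges thioredoxin, stood at 10.97, 10.85 and 10.64 in WT and 10.50, 10.04 and 11.03 in Sos2KO, against 10.36, 9.84 and 9.89 in Sos1KO and 10.25, 9.76 and 10.35 in Sos1/2DKO. Both Sos1-deleted groups were below all WT arrays, while the Sos2KO arrays were spread across both ranges. Txnrd1 fell by 0.60 (SE 0.18), close to the threshold, with a limma adjusted p of 0.048. With the spike-in as a term it was -0.60 at an adjusted p of 0.072. The call was lost when any 1 of 9 arrays was left out, and over all 12 such fits the difference ran from -0.72 to -0.47, with a limma adjusted p of at most 0.12. Srxn1, the sulfiredoxin that repairs over-oxidised peroxiredoxins, stood at 8.19, 7.88 and 7.89 in WT and 7.84, 7.69 and 7.99 in Sos2KO, against 7.90, 7.52 and 7.28 in Sos1KO and 7.93, 7.48 and 7.93 in Sos1/2DKO. These ranges overlapped, with a difference of -0.24 (95% interval -0.53 to 0.05). Thioredoxin itself, Txn1, was at -0.35 with a limma adjusted p of 0.075, and the mitochondrial reductase Txnrd2 was at -0.06.

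Sos1 loss raised 4 members. Sod3, the secreted superoxide dismutase, stood at 6.93, 6.86 and 7.25 in WT and at 6.21, 7.02 and 8.33 in Sos2KO. It stood at 7.31, 8.88 and 9.80 in Sos1KO and at 11.07, 11.12 and 7.56 in Sos1/2DKO. All 6 deleted arrays were above WT, yet replicate 1 of Sos1KO and replicate 3 of the double knockout lay under the highest Sos2KO array. The rise was 2.19 (SE 0.61), a factor of 4.56, with a limma adjusted p of 0.037, and Sod3 had the largest spread within groups of the 37 genes, an SD of 1.32. This call too was lost when any 1 of 9 arrays was left out, all 3 WT arrays among them, and over all 12 such fits the difference ran from 1.89 to 2.78. Cat, catalase, which breaks down hydrogen peroxide in peroxisomes, stood at 10.60, 10.82 and 10.74 in WT and 10.25, 10.82 and 10.70 in Sos2KO, against 11.20, 10.99 and 11.23 in Sos1KO and 11.14, 11.07 and 11.10 in Sos1/2DKO. Its 6 deleted arrays lay wholly above the other 6, and the rise was 0.46 (SE 0.11, limma adjusted p = 0.022). Without WT replicate 1 or Sos1KO replicate 3 the call of Cat was lost, with an adjusted p of at most 0.067. The intracellular dismutases Sod1 and Sod2 were at -0.13 and 0.17 and were not called.

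Mgst1, a membrane-bound glutathione transferase that can reduce lipid peroxides, stood at 8.90, 9.28 and 9.24 in WT and 9.69, 9.88 and 9.21 in Sos2KO, against 9.85, 9.96 and 10.29 in Sos1KO and 9.51, 9.92 and 9.97 in Sos1/2DKO. The WT arrays were the lowest except for Sos2KO replicate 3, which lay within them. Mgst1 rose by 0.55 (SE 0.15) across the Sos1 comparison, with a limma adjusted p of 0.029, and lost its call when any 1 of 8 arrays was left out, with the difference between 0.46 and 0.62 over all 12 such fits. Nox4, an NADPH oxidase that makes hydrogen peroxide, stood at 7.82, 8.38 and 7.89 in WT and 7.11, 7.01 and 7.77 in Sos2KO, against 8.85, 8.95 and 9.05 in Sos1KO and 7.72, 8.92 and 7.93 in Sos1/2DKO. Sos1KO was the highest group and Sos2KO the lowest, with the double knockout overlapping WT. Nox4 rose by 0.91 (SE 0.21), with a limma adjusted p of 0.015. Of the 9 calls, 8 passed with the spike-in as a term (all but Txnrd1) and 6 with the macrophage mean as a covariate (all but Cat, Mgst1 and Txnrd1). With the high-GC background as a covariate 6 of the 9 passed (all but Sod3, Cat and Nox4). Y-linked transcripts were expressed on 1 WT, 1 Sos1KO, 2 Sos2KO and all 3 Sos1/2DKO arrays, and with embryo sex as a term 7 passed (all but Txnrd1 and Sod3). Of all genes, 9.48% were called with the spike-in, 8.05% with the macrophage, 8.16% with the high-GC and 8.59% with the sex term.

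**Figure D2:**
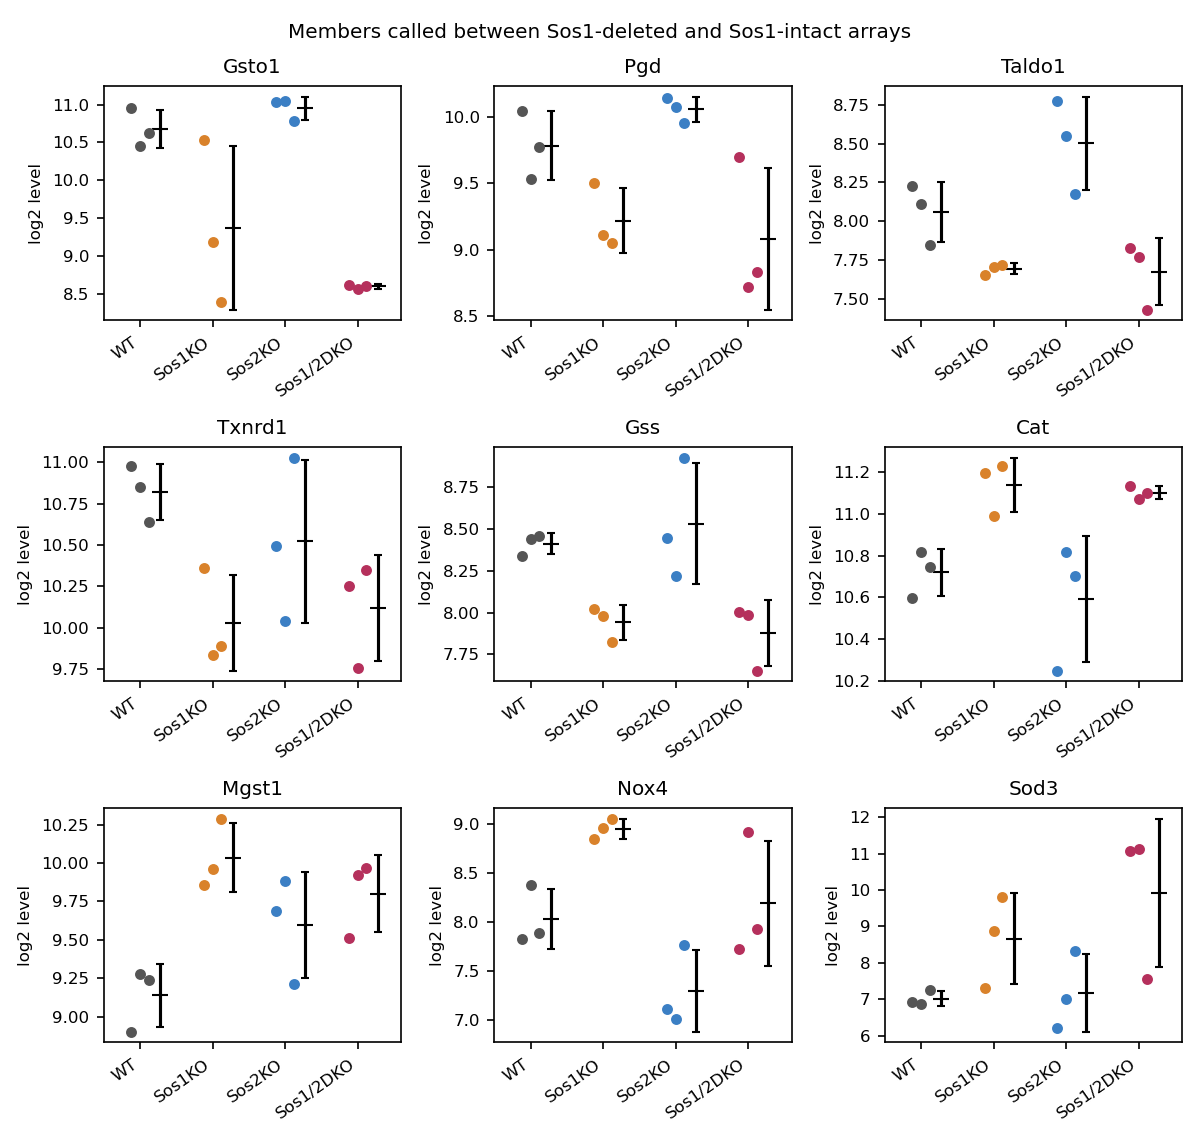
Log2 level on each array (points) for the 9 genes called between Sos1-deleted and Sos1-intact arrays, by genotype, with the group mean and SD of 3 arrays (bars). Gss, Taldo1 and Cat separate the 6 arrays from the 6 others completely, Gsto1 in Sos1KO spans from 8.40 to 10.54, and Sod3 in Sos1/2DKO spans from 7.56 to 11.12.

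The genes at the head of the pathway were not called. Nfe2l2, which encodes NRF2, stood at 7.98, 8.04 and 7.95 in WT and 7.32, 7.97 and 7.77 in Sos2KO, against 8.30, 7.74 and 7.91 in Sos1KO and 7.86, 7.71 and 8.03 in Sos1/2DKO. Its ranges overlapped in every group, and the effect of Sos1 loss was 0.09 (95% interval -0.21 to 0.38). Keap1 stood at 7.50, 7.61 and 7.45 in WT and 7.65, 7.60 and 7.87 in Sos2KO, against 7.66, 7.45 and 7.60 in Sos1KO and 7.82, 7.82 and 6.52 in Sos1/2DKO. Replicate 3 of the double knockout stood alone about 1 unit below all others, and the effect was -0.14 (95% interval -0.56 to 0.29). Without that array it was 0.08. These are transcript levels, and NRF2 is regulated mainly through the stability of its protein, which was not measured.

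Of 3 detoxification genes that are widely used as readouts of NRF2, none was called. Nqo1, a quinone reductase, stood at 7.10, 6.29 and 6.92 in WT and 8.22, 6.38 and 6.60 in Sos2KO, against 6.60, 6.60 and 6.76 in Sos1KO and 6.80, 7.05 and 6.77 in Sos1/2DKO. Sos2KO replicate 1 stood above all others, the double knockout arrays lay just above the Sos1KO arrays, and both of these groups lay within the WT range. The effect of Sos1 loss was -0.16 (95% interval -0.73 to 0.42), and without that Sos2KO array it was 0.13. Hmox1, which degrades haem, stood at 10.89, 11.05 and 10.51 in WT and 10.98, 10.48 and 10.83 in Sos2KO, against 10.39, 10.79 and 10.76 in Sos1KO and 11.26, 10.77 and 10.94 in Sos1/2DKO. It did not separate any pair of groups, and its effect was 0.03 (95% interval -0.28 to 0.34). Ephx1, an epoxide hydrolase, was at 0.27 (95% interval -0.06 to 0.59).

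No gene of the peroxiredoxins or the glutathione peroxidases was called for Sos1 loss. The 4 tested peroxiredoxins, thiol enzymes that reduce peroxides, lay between -0.15 for Prdx1 and 0.27 for Prdx4, with within-group SDs from 0.10 for Prdx2 to 0.23 for Prdx3, against a median of 0.24 over all genes. Prdx4 was lower in Sos2KO, at 9.65, 9.39 and 9.53, than on all 3 WT arrays, at 10.02, 10.12 and 9.95, but was not called there. Sos2KO lay wholly below WT for 5 of the 37 members, Prdx4 among them, and for 2096 of all 19505 genes. The 5 glutathione peroxidases lay between -0.06 for Gpx1 and 0.72 for Gpx3, the secreted plasma form, whose limma adjusted p was 0.095. Gpx4, which protects membranes from lipid peroxides, was at 0.08 (95% interval -0.17 to 0.33). Among the other transferases, Gsta4, Gstm1 and Gstp1 were at -0.47, 0.01 and -0.10 and were not called.

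**Figure D3:**
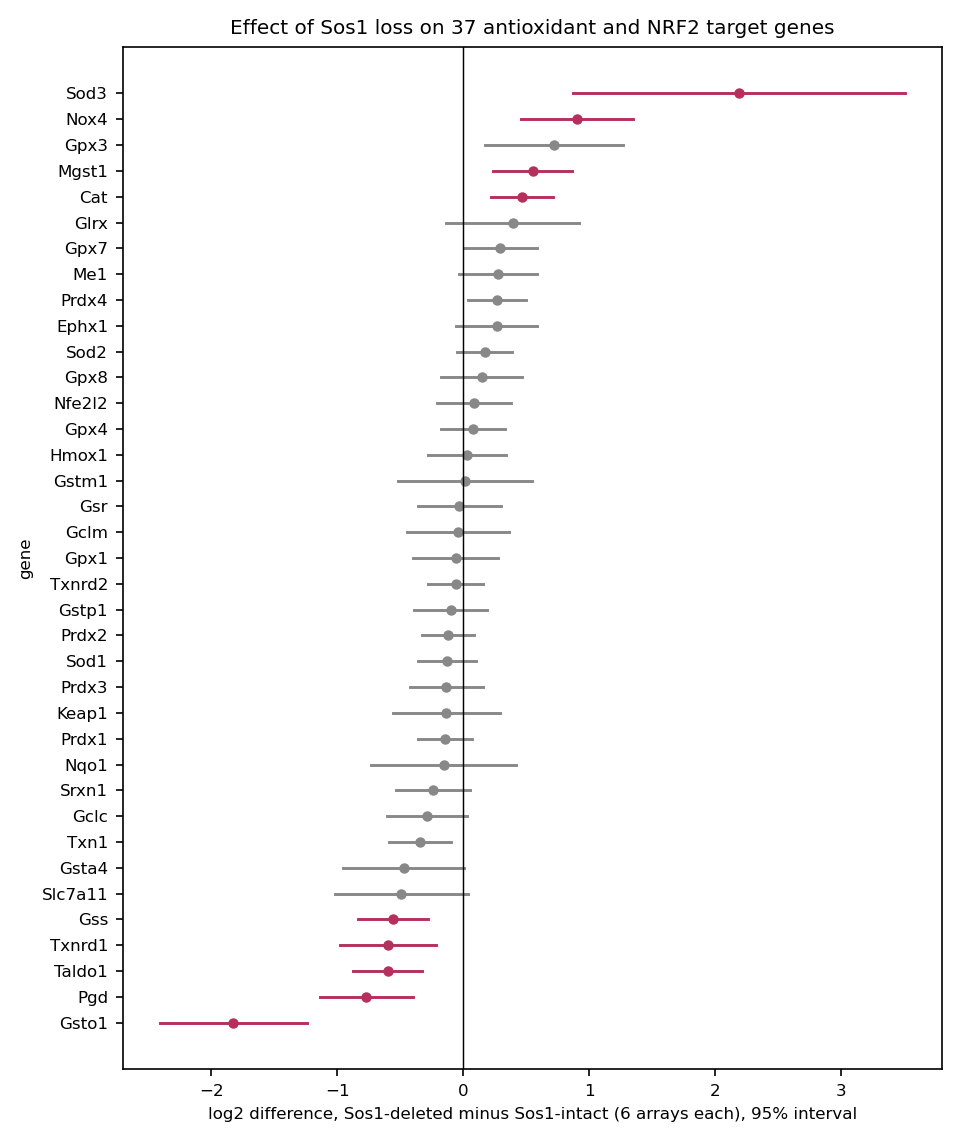
Difference in log2 level between the 6 Sos1-deleted and the 6 Sos1-intact arrays for the 37 tested genes (points), with 95% intervals from limma (lines). Gsto1, at -1.83, and Sod3, at 2.19, lie farthest from 0, and the intervals of Nfe2l2, Keap1, Nqo1, Hmox1, Gclc, Gclm, Slc7a11 and Srxn1 include 0.

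The antioxidant core was present in 3 of the 8 called genes that have a promoter window (Txnrd1, Pgd and Mgst1) and in 6 of the 24 genes with a window that were not called. Those 3 genes did not move together, since Txnrd1 and Pgd fell and Mgst1 rose. TGANTCA was found in 0 of the 8 and in 5 of the 24.

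The comparisons of 3 against 3 arrays showed how these effects fell on each genotype. Between Sos1KO and WT, 0 of 37 members passed, where 0.62% of all genes were called, and 10 members had an unadjusted p under 0.05 by limma, as did 11.1% of all genes. The nearest was Mgst1, at 0.90 (SE 0.21, limma adjusted p = 0.066). Sos1KO lay wholly above WT for Sod3, Cat, Gpx7, Mgst1 and Nox4 and wholly below it for Gclc, Gss, Slc7a11, Txn1, Txnrd1, Pgd and Taldo1, where 10.4% and 11.5% of all genes did so. With each array weighted by its quality, 8 members passed, as did 8.61% of all genes.

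Between Sos1/2DKO and WT, 1 member passed, where 5.94% of all genes were called, 1.78% higher and 4.16% lower. It was Gsto1, which fell by 2.08 (SE 0.38), a factor of 4.22, with a limma adjusted p of 0.0099. On the arrays without the spike-in, which leave the double knockout 2 arrays, Gsto1 fell by 2.09. Txn1 missed the threshold of limma, at -0.58 (SE 0.16, adjusted p = 0.052), and so did Sod3, at 2.90 (SE 0.86, adjusted p = 0.070). Double knockout arrays lay wholly above WT for Sod3, Cat and Mgst1, and wholly below it for Gclc, Gss, Txn1, Txnrd1, Prdx3, Sod1, Gsto1 and Taldo1, where 11.9% and 12.6% of all genes did so. Without WT replicate 1 the limma adjusted p of Gsto1 was 0.053, and 0 members passed, where 1.37% of all genes did.

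Loss of Sos1 in cells already lacking Sos2 was read from Sos1/2DKO against Sos2KO, where 6.14% of all genes and 3 of 37 members were called. The 3 were lower, as were 2.8% of all genes. Gsto1 fell by 2.35 (SE 0.38, limma adjusted p = 0.0075), Pgd by 0.98 (SE 0.24, adjusted p = 0.033) and Taldo1 by 0.83 (SE 0.18, adjusted p = 0.019). With the spike-in as a term only Gsto1 passed, at -2.83, where 1.48% of all genes did. Pgd and Taldo1 then had limma adjusted p-values of 0.23 and 0.13. With the high-GC background as a covariate none of the 3 passed, where 0.995% of all genes did. Gsto1 was then at -2.38 with an adjusted p of 0.050, and Pgd and Taldo1 were at -0.82 and -0.59. Pgd also lost its call without Sos2KO replicate 1 or 2 or Sos1/2DKO replicate 2 or 3, and Taldo1 without Sos2KO replicate 1 or 2 or Sos1/2DKO replicate 3. In the order given for Pgd, these fits called 1.74%, 2.27%, 4.29% and 4.45% of all genes. Within the arrays that carry the spike-in, which leave 1 double knockout array against 3, Gsto1 was at -2.33, Pgd at -0.36 and Taldo1 at -0.68. The lone array is there assumed to vary like the other groups.

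The single knockouts differed from each other in 3 members, where 4.29% of all genes were called, 2.8% higher and 1.49% lower in Sos1KO. Sos1KO was higher than Sos2KO for Nox4, by 1.65 (SE 0.29, limma adjusted p = 0.019), and lower for Gsto1, at -1.58 (SE 0.38, adjusted p = 0.039), and Taldo1, at -0.81 (SE 0.18, adjusted p = 0.031). All 3 Sos2KO arrays and 1 Sos1KO array carried the spike-in. With it as a term none of the 3 genes passed, and of all genes only 0.0615% did. Nox4 was then at 1.47, Gsto1 at -2.05 and Taldo1 at -0.72, with adjusted p-values of 0.097, 0.074 and 0.18. Macrophage markers also ran higher in Sos1KO than in Sos2KO. With their mean as a covariate 0% of all genes passed, these 3 included, with Nox4 at 1.31, Gsto1 at -1.85 and Taldo1 at -0.77. Leaving out replicate 2 or 3 of Sos1KO, or replicate 1 or 2 of Sos2KO, also lost each of the 3 calls. In those fits 0.0154%, 0.123%, 0.0923% and 0.0615% of all genes were called. Taldo1 was lost without Sos1KO replicate 1 as well, where 3.34% of all genes were called.

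Loss of Sos2 called none of these genes. Sos2KO against WT gave 0 of 37, where 0% of all genes were called, with 5 members and 13.9% of all genes at an unadjusted p under 0.05 by limma. Sos1/2DKO against Sos1KO gave 0 of 37 and 0.00513% of all genes, with 1 member, Nox4, and 7.2% of all genes at an unadjusted p under 0.05. The 6 Sos2-deleted arrays against the 6 others gave 0 of 37 and 0.00513% of all genes, with 4 members and 15.8% of all genes at an unadjusted p under 0.05. Nox4 was nearest, lower in the Sos2-deleted arrays at -0.75 (95% interval -1.19 to -0.30, limma adjusted p = 0.20).

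A difference of Sos1 effects between cells with and without Sos2 was tested as the interaction of the deletions. By limma 0 of 37 members and 0% of all genes were called, 3 members and 4.93% of all genes had an unadjusted p under 0.05, and the lowest adjusted p among the members was 0.91. Sod2, at 0.49 (95% interval 0.05 to 0.93), and Prdx4, at 0.48 (95% interval 0.02 to 0.95), were among the 3. Gsto1 showed an interaction of -1.05 with a 95% interval that includes 0 (-2.21 to 0.12), and Mgst1 one of -0.69.

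The effect of Sos1 loss can also be read from 2 sets of arrays that share none, Sos1KO minus WT and Sos1/2DKO minus Sos2KO. Over the 37 members, 30 (81.1%) had the same sign in both, 12 up and 18 down, against 64.0% of all genes. Pearson's r across the 37 genes was 0.84 and Spearman's rho 0.71, against 0.67 and 0.49 across all genes. Genes are not independent replicates, and the arrays of the study share a platform and a normalisation. The members all lay above the guide to weak signal and were listed with earlier results of these data known, while the values for all genes take in dim ones. Agreement among brighter genes alone was not computed. The corresponding shares for Sos2 loss, Sos2KO minus WT and Sos1/2DKO minus Sos1KO, were 17 of 37 (45.9%) for members and 63.4% for all genes.

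**Figure D4:**
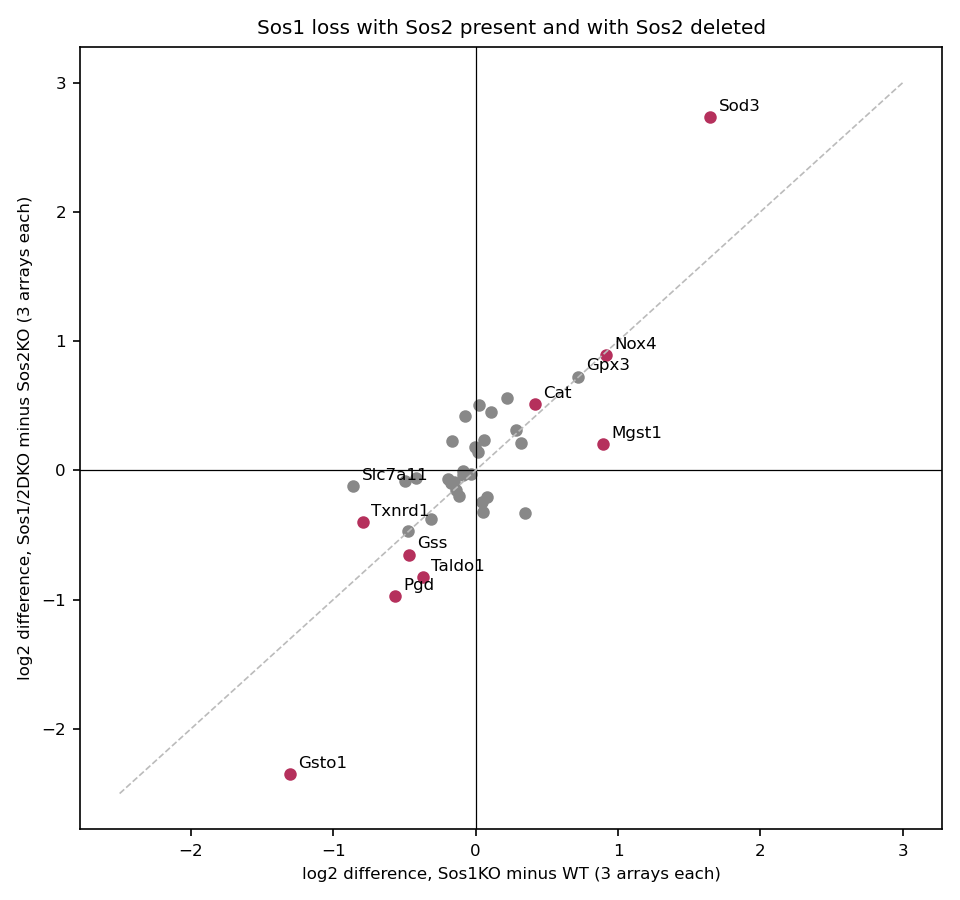
Log2 difference on Sos1 loss in cells with Sos2 (horizontal axis, Sos1KO minus WT) and without it (vertical axis, Sos1/2DKO minus Sos2KO), 1 point per tested gene. Gsto1 sits at the lower left and Sod3 at the upper right, and 30 of the 37 genes lie in the 2 quadrants of matching sign.

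Ucp2, a mitochondrial carrier that can lower the output of superoxide, Prdx6, a peroxiredoxin that uses glutathione, and G6pdx, which makes the first NADPH of the pentose phosphate pathway, could be named only because the authors' deposited tables list them among differing probe sets. Their differences are therefore given as a description. Ucp2 stood at 10.93, 10.77 and 11.15 in WT and 10.70, 10.87 and 11.25 in Sos2KO, against 9.82, 9.02 and 8.71 in Sos1KO and 8.71, 9.08 and 6.31 in Sos1/2DKO. Every Sos1-deleted array was below every Sos1-intact array, and the 6 against 6 difference was -2.34 (SE 0.40). Among the 19505 named genes, 2.69% lay wholly lower in this way. The authors' deposited table gives Ucp2 -1.77 for Sos1KO (adjusted p = 0.071) and -2.92 for Sos1/2DKO (adjusted p = 0.092), both against WT.

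Prdx6 stood at 9.02, 9.55 and 8.71 in WT and 9.30, 9.12 and 8.90 in Sos2KO, against 8.75, 8.96 and 8.14 in Sos1KO and 8.18, 7.74 and 8.44 in Sos1/2DKO. The double knockout lay below WT and Sos2KO, while Sos1KO overlapped both, and the 6 against 6 difference was -0.73 (SE 0.19). The authors' deposited table lists Prdx6 for Sos1/2DKO, at -0.97 with an adjusted p of 0.16. G6pdx stood at 10.05, 9.84 and 10.21 in WT and 9.89, 10.09 and 9.96 in Sos2KO, against 9.66, 9.52 and 9.40 in Sos1KO and 10.13, 9.62 and 9.62 in Sos1/2DKO. Sos1KO lay below WT and Sos2KO, and 1 double knockout array did not. The 6 against 6 difference of G6pdx was -0.35 (SE 0.12), and the authors' deposited table lists it for Sos1KO at -0.51 with an adjusted p of 0.17.

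**Figure D5:**
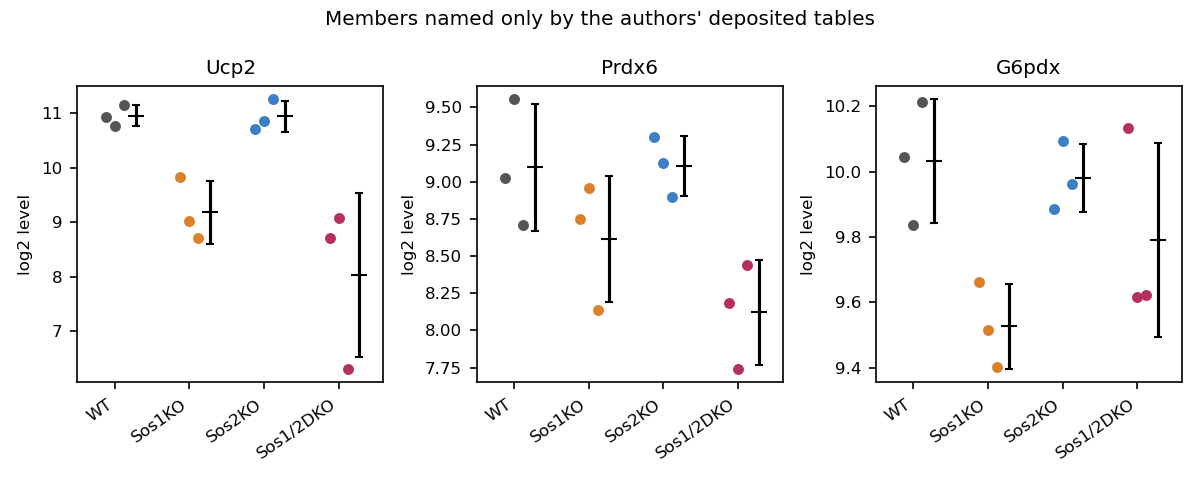
Log2 level on each array (points) of Ucp2, Prdx6 and G6pdx by genotype, with the mean and SD of 3 arrays (bars). Ucp2 lies between 10.70 and 11.25 on the Sos1-intact arrays and between 6.31 and 9.82 on the Sos1-deleted arrays, and each vertical axis has its own range.

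Across their listing, the authors' deposited tables, which go up to an adjusted p of 0.25, hold 10 of the antioxidant genes for Sos1KO (3 higher, 7 lower), 8 for Sos1/2DKO (2 higher, 6 lower) and 0 for Sos2KO. These lists hold 7.92%, 8.61% and 0.203% of the 29129 probe sets in that order. That total takes in 9557 probe sets that the platform does not name, so the shares over named genes may be higher and were not computed. Ucp2, Prdx6 and G6pdx could be named only from these lists, and without these 3 the counts are 8, 6 and 0 of 37.

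The other genes of the pathway were taken from 4 further lists. Of 14 partners and regulators of NRF2, 0 were called between Sos1/2DKO and WT and 1 across the Sos1 comparison, Sqstm1, whose product p62 binds KEAP1, which fell by 0.42 (limma adjusted p = 0.034). Of 30 measured further targets of NRF2, 1 was higher and 2 lower in the double knockout than in WT. Gstm2, a mu-class glutathione transferase, rose by 1.14 (limma adjusted p = 0.037), while Akr1b8, an aldo-keto reductase, fell by 0.93 (adjusted p = 0.032) and Ptgr1, which reduces reactive alkenals, fell by 0.79 (adjusted p = 0.017). Across the Sos1 comparison Gstm2 and Ptgr1 were called again, at 0.78 and -0.53. These counts, 3 of 30 and 2 of 30, stand beside shares of 5.94% and 10.3% of all genes.

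Of 32 other thiol and peroxide enzymes, 0 were called in the double knockout against WT and 3 across the Sos1 comparison, where 5.94% and 10.3% of all genes were called. Gstt3, a theta-class transferase, rose by 0.82 (limma adjusted p = 0.018) and Msrb3, which repairs oxidised methionine, rose by 0.55 (adjusted p = 0.030). Txn2, the mitochondrial thioredoxin, fell by 0.47 (limma adjusted p = 0.036).

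Of 14 measured sources of reactive oxygen, 1 rose in the double knockout and 3 across the Sos1 comparison, where 1.78% and 4.71% of all genes were called higher. Maob, a mitochondrial monoamine oxidase that releases hydrogen peroxide, stood at 6.73, 5.34 and 6.79 in WT and 5.43, 6.51 and 6.40 in Sos2KO, against 7.62, 7.55 and 7.96 in Sos1KO and 7.68, 8.10 and 8.31 in Sos1/2DKO. All 6 Sos1-deleted arrays were above all 6 others, as they were for 3 of the 14 sources, Maob included, and for 1.75% of all genes. Maob rose by 1.67 (SE 0.26, limma adjusted p = 0.0023), and by 1.75 in the double knockout against WT (adjusted p = 0.017). Maoa, its close relative, rose by 0.73 (limma adjusted p = 0.0098), and the collagen and elastin cross-linking oxidase Lox rose by 0.55 (adjusted p = 0.030).

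Markers of adipocytes had their highest mean in the double knockout. The mean of 6 such markers lay between 6.32 and 7.18 in Sos1/2DKO and between 5.65 and 5.98 in WT. It lay between 5.71 and 5.87 in Sos2KO and between 5.68 and 6.33 in Sos1KO, whose range met that of Sos1/2DKO. Of the 6, 0 were called for Sos1/2DKO against WT and 0 against Sos1KO, where 5.94% and 0.00513% of all genes were called. Pparg, a regulator of fat cells, rose by 1.58 across the Sos1 comparison (limma adjusted p = 0.017), while Adipoq was below the guide to weak signal on 11 of the 12 arrays and above it, at 6.12, in Sos1/2DKO replicate 2. Some markers of other cell types fell across the Sos1 comparison. Of 4 measured neural markers, Nes and Tubb3 fell by 1.67 and 1.07 (limma adjusted p = 0.0014 and 0.0020). Sox10, at 4.45 to 5.62, and Elavl3, at 4.72 to 5.54, lay near or below the guide to weak signal and were not called. Of 6 markers each of skeletal muscle, endothelium and epithelium, Acta1 fell by 2.12, Emcn by 1.73 and Krt18 by 1.5 (adjusted p = 0.010, 0.0059 and 0.0068). The other 5 markers in each list were not called, and the endothelial Pecam1, Cdh5, Tek and Tie1 lay below the guide on every array. Of all genes, 5.63% were called lower across this comparison. Of the 8 fibroblast markers, Thy1 fell by 1.33 (limma adjusted p = 0.0039) and Col3a1 rose by 0.96 (adjusted p = 0.042). The mean of the neural markers, moved mainly by Nes and Tubb3, lay between 6.64 and 7.23 on the Sos1-intact arrays. It lay between 5.79 and 6.49 on the Sos1-deleted arrays, without overlap. Singly, 1 of the 4, Tubb3, lay wholly lower, as did 2.69% of all genes. The part of these marker levels in the rises and falls of the antioxidant genes was not tested.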

How the data were processed

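RNA levels were measured on 12 Affymetrix arrays, 3 for each of 4 genotypes, and each array was grouped by its title. Per the submitters' processing notes the authors used R 3.6.3 and RMA, and the deposited table holds log2 values for 29129 probe sets. The authors' deposited tables of differences list, per the file headers, limma's log2 fold change, p-value and adjusted p-value beside its t score and B score. Differences of group means equal those fold changes to within 6.22e-09, which sets scale and direction. The genome build is not given in the sources used here. Precision is limited by having 3 arrays per group.

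The platform annotation names 19572 probe sets by 1 symbol each, leaves 9557 unnamed, and of 55 genes with several probe sets the brightest over all arrays was kept, giving 19505 genes. limma 3.58.1 in R 4.3.3 fitted 1 mean per group (8 residual degrees of freedom), and tested 9 comparisons, two-sided, adjusting by Benjamini-Hochberg over all genes. Data were simulated for these 19505 genes with independent normal noise, and 200 genes were changed alike in Sos1KO and Sos1/2DKO. Of genes changed by 1 log2 unit, Sos1KO against WT recovered 54%, Sos1/2DKO against WT 62% and the 6 against 6 Sos1 comparison 83%. The share of genes changed and the noise differ from the real data, so these recoveries may not carry over. Promoter windows came from RefSeq (GRCm38.p6) and were searched with Python 3.11.15.

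Values on every array are given for each member called in any comparison and for Nfe2l2, Keap1, Nqo1, Hmox1, Gclc, Gclm, Slc7a11, Txnrd1 and Srxn1, and the others by role. Genes of the 4 further lists are named where called against WT or across the Sos1 comparison, at most 4 per list. The members and lists were chosen with earlier results of these data known. Alternatives changed the scaling, the filter, the variance model, added the spike-in, high-GC, macrophage or sex terms, or left out 1 array.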

Additional observations from a re-analysis of the deposited data

Results flagged for a closer look

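Over the 6 Sos1-intact and the 6 Sos1-deleted arrays, 34 sets of 6 values were examined for the 17 members whose arrays are listed above. In 5 of them the extreme array stood apart from the other 5 by more than Dixon's 95% limit. That limit is made for values of 1 normal population, and each set here pools 2 genotypes. The share that chance would give is therefore not known, and the other genes were not examined. Among Sos1-intact arrays, Nfe2l2 was 7.32 in Sos2KO replicate 1, where the nearest array was 7.77. Gclc was 7.49 in Sos2KO replicate 2, where the nearest was 8.20. Gss was 8.93 in Sos2KO replicate 3, where the nearest was 8.46. These 3 arrays are the 3 Sos2KO cultures, each standing apart for a different gene. Among Sos1-deleted arrays, Keap1 was 6.52 in Sos1/2DKO replicate 3, where the nearest was 7.45, and Gsto1 was 10.5 in Sos1KO replicate 1, where the nearest was 9.19.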

How the results depend on the processing

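The 4 falls of Gsto1, Pgd, Taldo1 and Gss across the Sos1 comparison passed in all 23 alternatives, Nox4 in 22, Cat in 19, Mgst1 in 14, Txnrd1 in 10 and Sod3 in 9, with the sign unchanged in each, and the cause of the losses was not tested. The lowest and highest counts of members called when 1 array was left out were 5 (WT replicate 1 left out) and 12 (Sos1/2DKO replicate 3 left out) across the Sos1 comparison, against 9 with all arrays. In those fits 6% and 10% of all genes were called. For Sos1/2DKO against WT the counts were 0 and 3 (leaving out WT replicate 1 and Sos1/2DKO replicate 3), beside 1.37% and 3.62% of all genes. They were 1 and 6 for Sos1/2DKO against Sos2KO (without Sos2KO replicate 1 and Sos1/2DKO replicate 1), beside 1.74% and 7.11%. Sos1KO against Sos2KO gave 0 without Sos1KO replicate 2 and 3 without Sos2KO replicate 3, beside 0.0154% and 9.59%. Sos1KO against WT gave 0 and 1 (1 without Sos1KO replicate 1, beside 0.984%). The 6 against 6 Sos2 comparison gave 0 and 1 (1 without Sos1/2DKO replicate 2, beside 2.11%). Sos2KO against WT, Sos1/2DKO against Sos1KO and the interaction gave 0 throughout, where at most 3.69%, 0.0513% and 0.00513% of all genes were called. For Sos1/2DKO against WT the count was 2 instead of 1 with median centring, with dim genes left out and with a trended robust prior, each adding Txn1. In that order 5.92%, 8.86% and 5.61% of all genes tested were called. Array weights gave 8 for Sos1KO against WT, 4 for Sos1/2DKO against WT, 9 for Sos1KO against Sos2KO and 1 (Nox4) for the Sos2 comparison, where 8.61%, 9.22%, 13% and 3.18% of all genes were called. The spike-in as a term gave 1 for Sos1/2DKO against Sos2KO and 0 for Sos1KO against Sos2KO, beside 1.48% and 0.0615% of all genes. The high-GC covariate gave 0 and 0, beside 0.995% and 0.00513% of all genes. Fits of 2 groups alone gave 2 for Sos1KO against WT and 1 for Sos1/2DKO against Sos2KO, beside 1.4% and 2.39% of all genes. Chosen after seeing the data, the macrophage covariate gave 0 and a term for embryo sex (Y-linked transcripts) 1 for Sos1KO against Sos2KO. In these fits 0% and 1.54% of all genes were called. The fit of the arrays carrying the spike-in was also chosen then. The authors' cutoff of 0.25, also added later, gave 4 for Sos1KO against WT, 9 for Sos1/2DKO against WT, 11 for Sos1/2DKO against Sos2KO, 11 for Sos1KO against Sos2KO, 14 for the Sos1 comparison and 1 for the Sos2 comparison, where 5.7%, 19.6%, 23.7%, 22%, 25.1% and 7.75% of all genes were called in that order.

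With the replicate number as a replicate block, 5 members were called for Sos1KO against Sos2KO (Gpx3, Gsto1, Pgd, Taldo1 and Nox4) and 9 across the Sos1 comparison, with Gpx3 in and Sod3 out. In these fits 3.63% and 9.17% of all genes were called. Deviations of same-numbered arrays from their group means had correlations from -0.35 to 0.30 over 18 pairs, 6 of them over 0.1. Differently numbered arrays were not compared, so these values cannot decide whether the numbers pair the samples.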
